A study of Mus musculus with 12 samples.

Results

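Erythroid genes are those that make and equip the red cell. The set described here holds 7 of the 19212 genes measured: the adult beta-globin genes Hbb-bs and Hbb-bt, the adult alpha-globin genes Hba-a1 and Hba-a2, the heme synthesis gene Alas2, the red cell membrane gene Slc4a1 and the red cell enzyme gene Bpgm. All 7 were found by symbol, and they were listed with their levels in these libraries already known, so their levels are given as a description without a test. Counts of members called appear only where the dependence on processing is described, and nothing is read from them. Messenger RNA was measured in 12 mouse libraries, 3 in each of 4 groups, all labelled as lung cancer tissue. In the groups NC and OTUB1_KD, LLC cells, which derive from the Lewis lung carcinoma of mice, received a negative control lentivirus or a lentivirus against Otub1 before tumours were grown in the lung. The genotype label is WT for NC and OTUB1 knockdown for OTUB1_KD. In the groups Blank and SFD@M, both labelled WT, tumour-bearing mice received physiological saline or the agent named SFD@M. Titles of the Blank libraries also carry codes that begin with KD, so the saline label and the word Blank decided their group. Nothing in the labels says whether the 3 libraries of a group came from separate mice, or gives the mouse strain, age, dose or time, so the spread between libraries may be technical.

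A red cell forms in bone marrow and spleen from precursors that switch on globin, heme and membrane genes, guided by factors such as Gata1 and Klf1, and then loses its nucleus. Hemoglobin pairs alpha-globin with beta-globin chains around heme, and the youngest circulating red cells, reticulocytes, still carry globin messenger RNA while the genes of the precursor stage are largely silent in them. Blood reaches a dissected lung or tumour sample through its vessels, so red cell messages are a usual part of tissue libraries.

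The promoters of the members are shown because the members were high in the same libraries. Each line gives the 150 bases before the transcription start, 5′ to 3′ on the gene's own strand, from RefSeq on build GRCm38.p6, whereas the deposited values were made on GRCm39. Capitals mark CACCC and CCAAT on either strand (GGGTG and ATTGG on the other), AGATAA or TGATAA on either strand (TTATCT is the reverse complement of the first), and TATAA on the printed strand.
Hbb-bs, chr7:103827929-103828078, minus strand: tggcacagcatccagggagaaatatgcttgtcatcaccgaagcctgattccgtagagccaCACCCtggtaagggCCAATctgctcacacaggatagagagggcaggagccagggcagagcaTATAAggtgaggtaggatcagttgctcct
Hbb-bt, chr7:103813924-103814073, minus strand: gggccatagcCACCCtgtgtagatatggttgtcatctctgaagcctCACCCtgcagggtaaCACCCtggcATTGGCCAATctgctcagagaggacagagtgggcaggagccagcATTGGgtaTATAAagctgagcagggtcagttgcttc
Hba-a1, chr11:32283522-32283671, plus strand: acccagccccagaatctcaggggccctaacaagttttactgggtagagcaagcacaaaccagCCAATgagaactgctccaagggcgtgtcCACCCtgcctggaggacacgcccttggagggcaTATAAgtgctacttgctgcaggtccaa
Alas2, chrX:150547267-150547416, plus strand: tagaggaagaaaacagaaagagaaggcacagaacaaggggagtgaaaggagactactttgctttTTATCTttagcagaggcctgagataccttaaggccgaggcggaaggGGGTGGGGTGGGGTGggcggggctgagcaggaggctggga
Bpgm, chr6:34476206-34476355, plus strand: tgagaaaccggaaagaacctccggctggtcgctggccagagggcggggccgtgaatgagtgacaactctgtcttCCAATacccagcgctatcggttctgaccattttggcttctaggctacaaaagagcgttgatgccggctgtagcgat
The Hba-a2 promoter (chr11:32296342-32296491, plus strand) is not printed, because it matched that of Hba-a1 at 147 of 147 bases once the starts, 3 bases apart, were aligned. Those of Hbb-bs and Hbb-bt matched at 106 of 149 bases with the starts 1 base apart. Slc4a1 was not matched.

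The 4 globin promoters each held the CACCC, the CCAAT and the TATAA motif, the last beginning 27 to 30 bases before the start. Hbb-bs carried 1 CACCC motif and 1 CCAAT motif, at 90 and 76 bases before the start, and Hbb-bt carried 3 of each. Alas2 held 3 copies of GGGTG between 40 and 26 bases before the start and 1 TTATCT at 86 bases, the letters bound by GATA factors in their known motif. Bpgm held CCAAT at 76 bases and none of the other motifs. Among all 32851 promoters of the table, the same 150-base window held CACCC in 37.4%, CCAAT in 24.5%, TATAA in 9.99% and the GATA motif in 9.65%. A match describes letters in a window and no more.

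Each library held between 16062806 and 18028828 estimated read counts assigned to genes, and levels are counts scaled to a library total of 1000000 (CPM). Otub1, the gene aimed at by the knockdown, was at 58.6, 49.3 and 71.2 CPM in the libraries labelled OTUB1_KD and at 76.2, 73.9 and 69.8 CPM in NC, so the third OTUB1_KD library lay within the NC range. In SFD@M, labelled WT, Otub1 was at 47.3, 45.5 and 48.1 CPM, under every OTUB1_KD library. In Blank it was at 78.0, 73.3 and 73.5 CPM. Lower Otub1 was thus not confined to the knockdown label. The tissue label was not matched by host cell markers in NC and Blank: Ptprc, present on nearly all leukocytes, was at 0 to 0.187 CPM there and at 154 to 239 CPM in OTUB1_KD and SFD@M together. Summed lung alveolar markers likewise were at 117 to 142 CPM in NC and Blank and at 11130.1 to 27360.0 CPM in OTUB1_KD and SFD@M. NC and Blank replicates differed by little more than counting noise, with a variance 1.32 to 2.00 times that of sampling, against 16.8 to 160.2 times in SFD@M and OTUB1_KD. For the erythroid genes 1 library stood apart from its group, SFD@M replicate 1, and results that rest on it are given with and without it.

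The beta-globin genes were among the most abundant messages in the libraries labelled OTUB1_KD and nearly absent from NC and Blank. Hbb-bs, the major adult beta-globin of the single haplotype carried by strains such as C57BL/6, was at 2980.5, 3878 and 5538 CPM in OTUB1_KD replicates 1, 2 and 3. In NC it was at 0.0623, 0.0594 and 0 CPM, which is 2 counts in all, in Blank at 0.232, 0 and 0.0583 CPM, and in SFD@M at 94.0, 0.707 and 0.617 CPM. Every OTUB1_KD library lay above every other library, and every SFD@M library lay above every NC and Blank library, whereas NC and Blank overlapped. By CPM Hbb-bs ranked 5 to 6 of the 19212 genes in OTUB1_KD, 2470 in SFD@M replicate 1, and 14467 and 14750 in the other SFD@M libraries.

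The summed Hbb-bs counts gave a ratio of OTUB1_KD to NC of 103191, with a 95% counting interval of 28566 to 852083 that covers counting error only. The corresponding ratio of SFD@M to Blank was 329 (141 to 1013), but 6.68 (2.47 to 22.6) without SFD@M replicate 1, so most of it rests on that library. OTUB1_KD against SFD@M gave 130 (124 to 137), and 6405 (4230.1 to 10220) without it. In bulk tissue, fewer cells of a type and less RNA per cell cannot be told apart.

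Hbb-bt, the second adult beta-globin gene of that haplotype, was at 584, 822 and 939 CPM in OTUB1_KD. It had 0, 0 and 1 count in NC, 0, 1 and 0 in Blank, and was at 11.5, 0.411 and 0.0895 CPM in SFD@M. The pattern was that of Hbb-bs: OTUB1_KD stood above all other libraries and SFD@M replicate 1 above the other SFD@M libraries, of which the lower held about 2 counts, close to the 1 count of the controls. The coding sequences of the pair differ at 1 of 444 bases in the GENCODE M21 transcripts, so how reads were split between them is uncertain. Hbb-bs held 83.6%, 82.5% and 85.5% of the pair's counts in OTUB1_KD, with exact 95% binomial intervals inside 82.3% to 85.7%. In SFD@M the share was 89.1%, 63.2% and 87.3%, and the 19 and 12 counts behind the last values leave intervals of 38.4% to 83.7% and 51.6% to 97.9%. Hbb-b1 and Hbb-b2, the beta-globin genes of the other mouse haplotype, had at most 8.86 counts in any library.

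The alpha-globin genes followed the same order of groups, with a higher floor in SFD@M for Hba-a1. Hba-a1 was at 1799.5, 2499 and 4040.2 CPM in OTUB1_KD and at 73.3, 9.43 and 8.60 CPM in SFD@M. In NC it was at 0.417, 0.359 and 0.492 CPM and in Blank at 0, 0.177 and 0.0583 CPM, so the 4 groups did not overlap: OTUB1_KD was highest, then SFD@M, NC and Blank. OTUB1_KD to SFD@M was 91.7 (87.2 to 96.5) by summed counts and 310 (277 to 348) without SFD@M replicate 1. SFD@M to Blank was 393 (153 to 1444), and 116 (44.9 to 429) without it.

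Hba-a2 encodes the same chain from a neighbouring copy. It was at 1214, 1694 and 2713 CPM in OTUB1_KD and at 38.9, 0.341 and 0.295 CPM in SFD@M. NC held 0.517, 0.235 and 0.160 CPM and Blank 0.174, 0.171 and 0 CPM, so SFD@M replicates 2 and 3 lay inside the NC range and NC overlapped Blank. OTUB1_KD to SFD@M was 143 (132 to 154), and 5817 (3251 to 11653) without SFD@M replicate 1. SFD@M to Blank was 114 (51.9 to 311) with that library and 2.78 without it, with an interval of 0.944 to 9.17 that includes no difference.

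**Figure D1:**
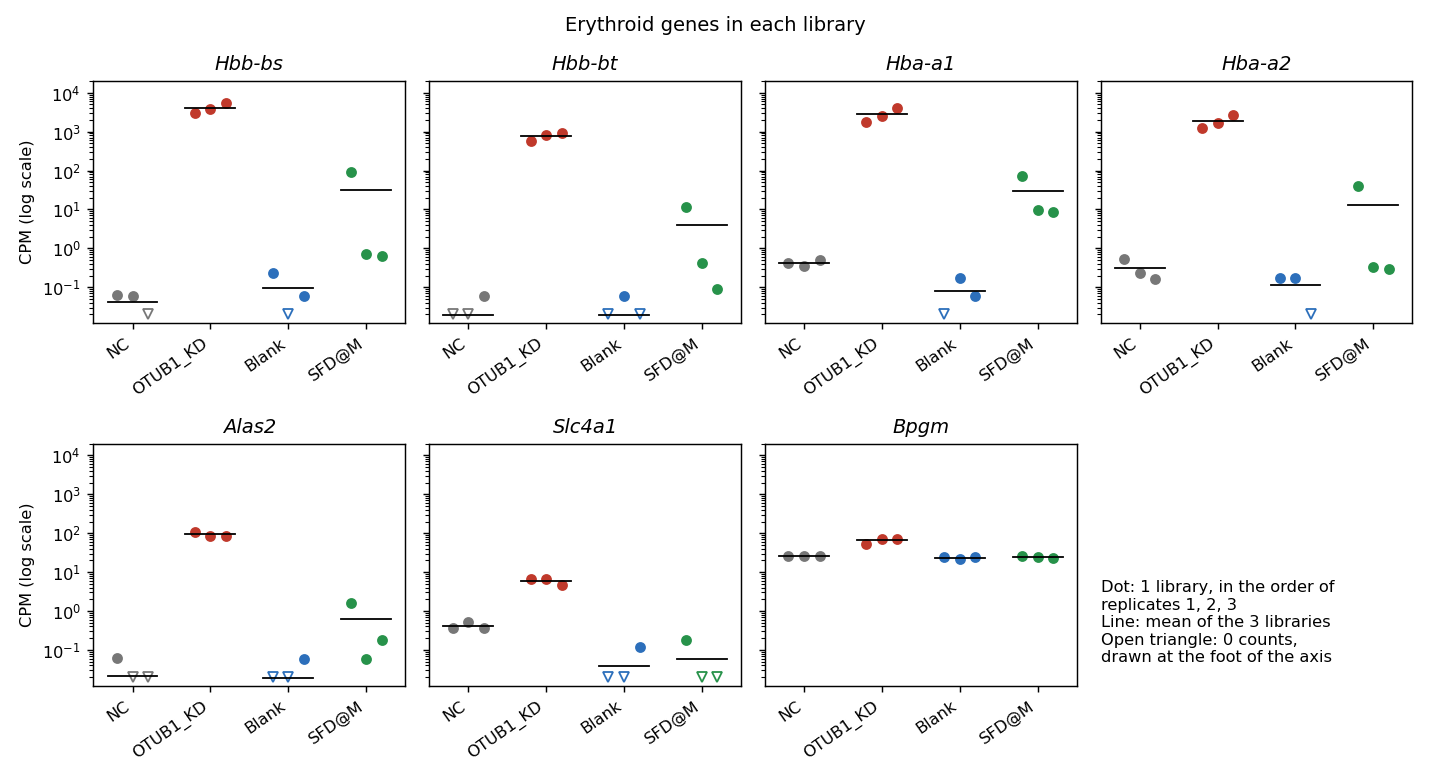
CPM on a log scale of each of the 7 erythroid genes in the 12 libraries; dots are libraries in the order of replicates 1, 2 and 3, lines are means of 3, and open triangles at the foot of the axis are libraries with 0 counts. OTUB1_KD stands highest in every panel, and SFD@M replicate 1 stands above SFD@M replicates 2 and 3 in every panel, by little for Bpgm, where the 3 lie at 23.2 to 25.3 CPM.

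Alas2 encodes the erythroid form of the enzyme that starts heme synthesis. Its level was 108, 86.9 and 87.1 CPM in OTUB1_KD and 1.58, 0.0588 and 0.177 CPM in SFD@M, which are 27.0, 1 and 3 counts. NC and Blank held 1 count each. OTUB1_KD stood apart from all other libraries, and the SFD@M libraries other than replicate 1 reached down to the 1 count of the controls. OTUB1_KD to SFD@M was 155 (109 to 228), and 798 (312 to 2931) without SFD@M replicate 1. The ratio to NC rests on that 1 count: 4678 (839 to 184798). In OTUB1_KD 81.7% to 88.2% of the Alas2 counts were assigned to the transcript NM_009653 and most of the rest to NM_001102446.

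Slc4a1 encodes band 3, the anion exchanger of the red cell membrane, and was the least abundant member. It was at 6.63, 6.47 and 4.66 CPM in OTUB1_KD, or 312 counts in all. SFD@M replicate 1 held 3 counts and replicates 2 and 3 held 0, and Blank held 0, 0 and 2. Unlike the globins, Slc4a1 was higher in NC, at 0.374, 0.535 and 0.356 CPM, than in any Blank or SFD@M library. OTUB1_KD to NC was 14.0 (9.00 to 22.9), and OTUB1_KD to SFD@M was 100.4 (34.1 to 490), or at least 66.9-fold higher without SFD@M replicate 1, against a floor of 3 counts over the remaining libraries. For SFD@M and Blank, both at or under the floor, no ratio is given.

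Bpgm makes the bisphosphoglycerate that lowers hemoglobin's hold on oxygen, and its messenger RNA was found in every group. It was at 54.0, 70.8 and 71.5 CPM in OTUB1_KD, 26.3, 26.7 and 26.5 CPM in NC, 24.5, 21.6 and 24.2 CPM in Blank, and 25.3, 24.7 and 23.2 CPM in SFD@M. Only the OTUB1_KD libraries stood well apart, NC lay just above SFD@M, and SFD@M overlapped Blank. OTUB1_KD was 2.47 times NC (2.32 to 2.63) and 2.69 times SFD@M (2.52 to 2.87), and SFD@M was 1.04 times Blank (0.960 to 1.13). SFD@M replicate 1 did not stand apart from its group for this gene. The transcript NM_007563 took 60.8% to 92.3% of Bpgm counts in OTUB1_KD, 74.9% to 80.9% in SFD@M and 88.3% to 97.6% in NC and Blank.

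Levels of different genes can be set side by side only per transcript length, as the deposited TPM, in which values are divided by transcript length and scaled to the same total. In OTUB1_KD the order by TPM was Hbb-bs at 14502 ± 2963 (SD, n = 3), Hba-a1 at 12306 ± 3276, Hba-a2 at 8189 ± 2168, Hbb-bt at 2827 ± 359, Alas2 at 73.0 ± 12.0, Bpgm at 68.7 ± 10.5 and Slc4a1 at 1.82 ± 0.306. The ranges of Hbb-bs and Hba-a1, of Hba-a1 and Hba-a2, and of Alas2 and Bpgm overlapped, while Hbb-bt and Slc4a1 were separated from their neighbours. Together the globins made up 3.03%, 3.59% and 4.73% of TPM in the OTUB1_KD libraries, and 0.0907%, 0.00539% and 0.00449% in SFD@M.

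SFD@M and OTUB1_KD are the groups in which host cells were plentiful, and between them all 7 members were lower in SFD@M. All 7 passed the filter on low counts in this comparison and in OTUB1_KD against NC, and 3 of 7 (Bpgm, Hba-a1 and Hbb-bs) did in SFD@M against Blank. All OTUB1_KD libraries lay over all NC libraries for 7 of 7 members, as for 45.6% of genes tested. All SFD@M libraries lay over all Blank libraries for 4 of 7, the globins, by both CPM and counts. Alas2 was separated there by CPM alone, with 0.0588 CPM as the lowest SFD@M value and 0.0583 CPM as the highest in Blank, each 1 count. By CPM alone this held for 51.3% of genes tested, which include only 3 of the 7 members. Experiment and group cannot be told apart in SFD@M against OTUB1_KD, which crosses the knockdown and treatment experiments. All SFD@M libraries lay under all OTUB1_KD libraries for 7 of 7 members, as they did for 16.7% of the 14914 genes tested, and nothing is read from the members' count because the members were chosen on these levels. The fitted log2 difference, SFD@M minus OTUB1_KD, was -7.61 ± 1.42 (SE) for Hbb-bt, -7.25 ± 0.77 for Alas2, -7.16 ± 1.79 for Hba-a2, -7.03 ± 1.92 for Hbb-bs, -6.52 ± 1.02 for Hba-a1, -6.48 ± 0.78 for Slc4a1 and -1.42 ± 0.18 for Bpgm. Of the 14914 genes, 11 (0.0738%) had a log2 difference of -6 or lower, and 6 of these were the members other than Bpgm. The remaining 5 were Rhox5, Hmga2, Krt13, Bcat1 and Gm364, which were named after their values were seen. Nothing is read from the members' share of these 11 either, because the members were chosen on these levels.

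Without SFD@M replicate 1, the fitted log2 difference moved to -12.62 for Hbb-bs, -11.48 for Hbb-bt, -12.46 for Hba-a2, -8.27 for Hba-a1, -9.55 for Alas2 and -9.68 for Slc4a1. These values carry no test, for the reason given above.

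**Figure D2:**
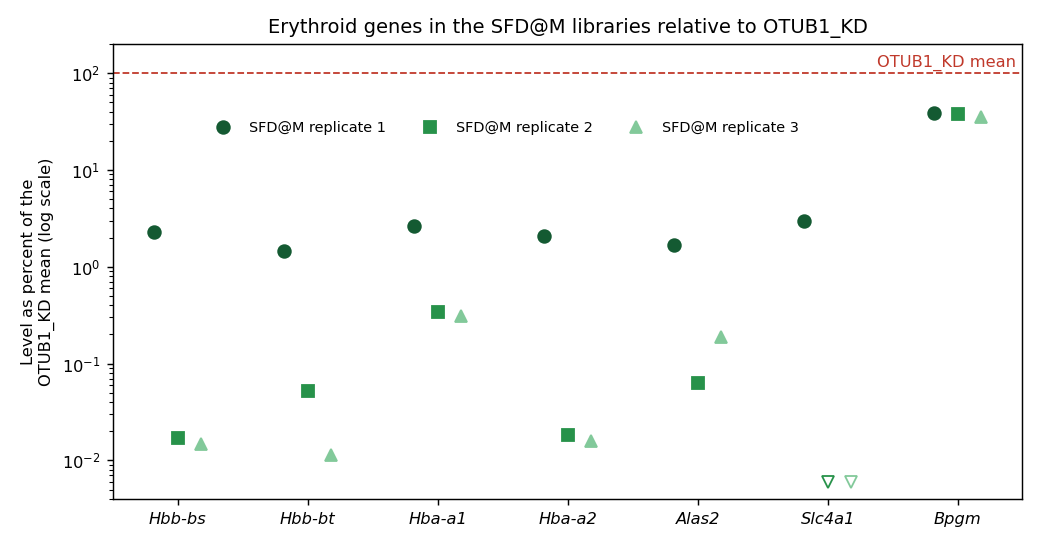
Level of each erythroid gene in each SFD@M library as a percent of the mean of the 3 OTUB1_KD libraries, on a log scale; open triangles are libraries with 0 counts. SFD@M replicate 1 holds 1.47% to 2.97% of the OTUB1_KD mean for 6 genes, the other libraries hold at most 0.339% for those genes, and Bpgm lies at 35.5% to 38.7% in all 3.

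For the globins and Alas2, the SFD@M libraries differed more among themselves than the OTUB1_KD libraries did. Slc4a1, with 3, 0 and 0 counts in SFD@M, was too low for this comparison. For Bpgm (1.09-fold against 1.32-fold) and over all genes the OTUB1_KD libraries differed more. SFD@M replicate 1 held 2.28% of the OTUB1_KD mean for Hbb-bs, 1.47% for Hbb-bt, 2.64% for Hba-a1, 2.08% for Hba-a2, 1.68% for Alas2 and 2.97% for Slc4a1. These 6 shares lie within about a factor of 2 of each other, although that of Slc4a1 rests on 3 counts. The globins and Alas2 thus kept the proportions of OTUB1_KD within about a factor of 2 in that library, at a much lower level. The proportions were not the same: Hba-a1 held 65.3% of alpha counts and Hbb-bs 89.1% of beta counts there, both above every OTUB1_KD library. In SFD@M replicates 2 and 3 the shares were 0.0171% and 0.0149% for Hbb-bs, 0.0182% and 0.0157% for Hba-a2, and 0.339% and 0.309% for Hba-a1, so the proportions differed more there. The highest SFD@M library exceeded the lowest 152-fold for Hbb-bs, 132-fold for Hba-a2 and 8.52-fold for Hba-a1, against 1.86-fold, 2.23-fold and 2.25-fold in OTUB1_KD.

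The ratio of alpha-globin to beta-globin counts differed between the libraries. Alpha-globin counts divided by beta-globin counts were 0.846, 0.892 and 1.04 in OTUB1_KD and 1.06, 8.74 and 12.6 in SFD@M. The groups did not overlap, but SFD@M replicate 1 lay next to the highest OTUB1_KD library, and the mean log2 difference was 2.41, given without a test. Leaving out SFD@M replicate 1 moved the difference to 3.51. Hba-a1 held 59.7%, 59.6% and 59.8% of the alpha counts in OTUB1_KD, a spread narrower than 1 percentage point. Its share was 65.3% in SFD@M replicate 1 (exact 95% binomial interval 63.1% to 67.4%), 96.5% in replicate 2 (92.3% to 98.7%) and 96.7% in replicate 3 (92.4% to 98.9%). So the alpha counts of SFD@M replicates 2 and 3, 166 and 151 in all, were nearly all assigned to Hba-a1. Hba-a2 alone stayed under the beta counts in every library of both groups, with 5.79 and 5.01 counts against 19 and 12 in those libraries. The higher ratios there thus rest on the counts assigned to Hba-a1 and on few beta counts. The coding sequences of Hba-a1 and Hba-a2 differ at 1 of 429 bases, and whether this shift arose in the assignment of reads was not tested.

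**Figure D3:**
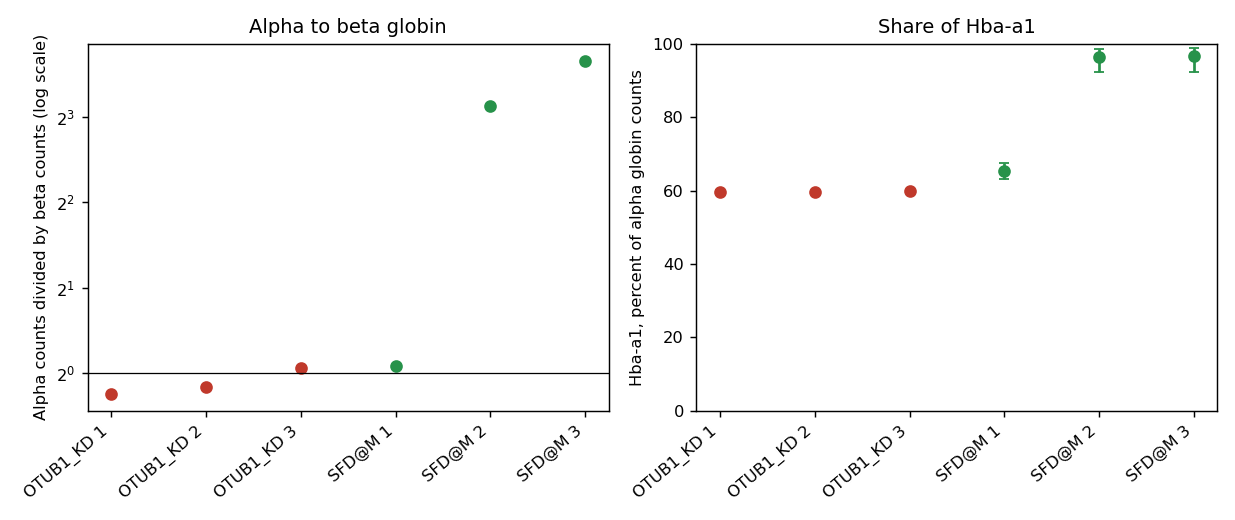
Left, alpha-globin counts divided by beta-globin counts on a log scale, and right, the share of alpha counts assigned to Hba-a1 with exact 95% binomial intervals, in the 6 libraries of OTUB1_KD (red) and SFD@M (green). SFD@M replicate 1 sits beside the OTUB1_KD libraries at a ratio of 1.06 and a share of 65.3%, while SFD@M replicates 2 and 3 sit at ratios of 8.74 and 12.6 and shares of 96.5% and 96.7%.

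The members did not keep a fixed order across the OTUB1_KD libraries. Summed globin was lowest in replicate 1, at 6578 CPM, intermediate in replicate 2, at 8893 CPM, and highest in replicate 3, at 13230 CPM. Alas2 was instead highest in replicate 1 and Slc4a1 lowest in replicate 3, so Alas2 per 1000 globin counts was 16.4, 9.78 and 6.59. Y-linked genes, which the tumour line carries, were at 127, 0.636 and 24.5 CPM in those libraries, or 36.9%, 0.184% and 7.08% of the NC mean, an order that does not follow that of the globins. In SFD@M the Y-linked sum was 0.0511% to 0.476% of the NC mean, a range that held the 0.184% of OTUB1_KD replicate 2. Summed dividing cell markers were at 216 CPM in that OTUB1_KD library and at 29.0 to 101 CPM in SFD@M. Summed globin was at 218, 10.9 and 9.60 CPM in SFD@M. How tumour content bears on the globin levels was not tested.

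Platelet, neutrophil and endothelial markers were higher in SFD@M than in OTUB1_KD by their mean sums, Ptprc overlapped between them, and B cell and T and NK cell markers were lower, though far less so than the globins. Globin summed CPM divided by Ptprc CPM was 29.3, 37.2 and 86.1 in OTUB1_KD and 0.981, 0.0521 and 0.0423 in SFD@M, since Ptprc itself was at 206 ± 45.6 CPM and 219 ± 9.29 CPM. Platelet markers (18 genes) summed to 212 to 305 CPM in OTUB1_KD and to 264 to 665 CPM in SFD@M, and 16 of the 18 had the higher mean in SFD@M. The same list summed to 353 to 365 CPM in NC, above every OTUB1_KD library, and to 77.2 to 81.6 CPM in Blank. Among them Pf4, platelet factor 4, was at 25.7 ± 10.3 and 48.1 ± 29.8 CPM, and Ppbp, a platelet chemokine, at 24.7 ± 8.22 and 70.3 ± 46.9 CPM, although Ppbp was also at 241 ± 5.41 CPM in NC. Neutrophil markers (17 genes) summed to 203 to 790 CPM in OTUB1_KD and 1419 to 2572 CPM in SFD@M, with S100a8 at 80.8 ± 48.1 and 468 ± 164 CPM. Their groups did not overlap, and the direction was opposite to that of the globins.

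Endothelial markers (14 genes) summed to 1590.0 to 4429 CPM in OTUB1_KD and 4298 to 5880.0 CPM in SFD@M, with Cdh5, a junction protein of vessels, at 441 ± 201 and 561 ± 126 CPM. Monocyte and macrophage markers (14 genes) were at 0.924 times their OTUB1_KD mean in SFD@M, alveolar markers (11 genes) at 1.25 times, airway markers (10 genes) at 1.71 times, heart muscle markers (9 genes) at 1.55 times and bone marrow progenitor markers (10 genes) at 1.37 times. Of these, only the airway sums did not overlap between the groups. Alveolar sums were at 11130, 24876 and 27360 CPM in OTUB1_KD and 25051 to 27256 CPM in SFD@M. Heart muscle sums were at 188, 622 and 93.0 CPM against 308 to 618 CPM. Lower in SFD@M were B cell markers (7 genes), at 0.316 times with 0 of 7 genes higher, fibroblast markers (10 genes) at 0.535 times, T and NK cell markers (12 genes) at 0.732 times and dividing cell markers (8 genes) at 0.134 times. Fibroblast markers also summed to 2274 to 2380 CPM in NC and 2754 to 2836 CPM in Blank, against 2110 to 3077 CPM in SFD@M. That list is thus no measure of host cells alone. Sftpc, a surfactant protein, was at 12956 ± 5381 CPM in OTUB1_KD and 14831 ± 976 CPM in SFD@M, Scgb1a1 of club cells at 18661 ± 8782 and 32259 ± 1545 CPM, the heart myosin Myh6 at 79.7 ± 80.5 and 93.9 ± 16.6 CPM, and Mki67 of dividing cells at 109 ± 86.3 and 22.5 ± 12.8 CPM. The globin sum was at 0.00830 times, and at 0.0228 times in SFD@M replicate 1 alone. What part blood content, dissection or tumour content had in the members' levels was not tested.

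**Figure D4:**
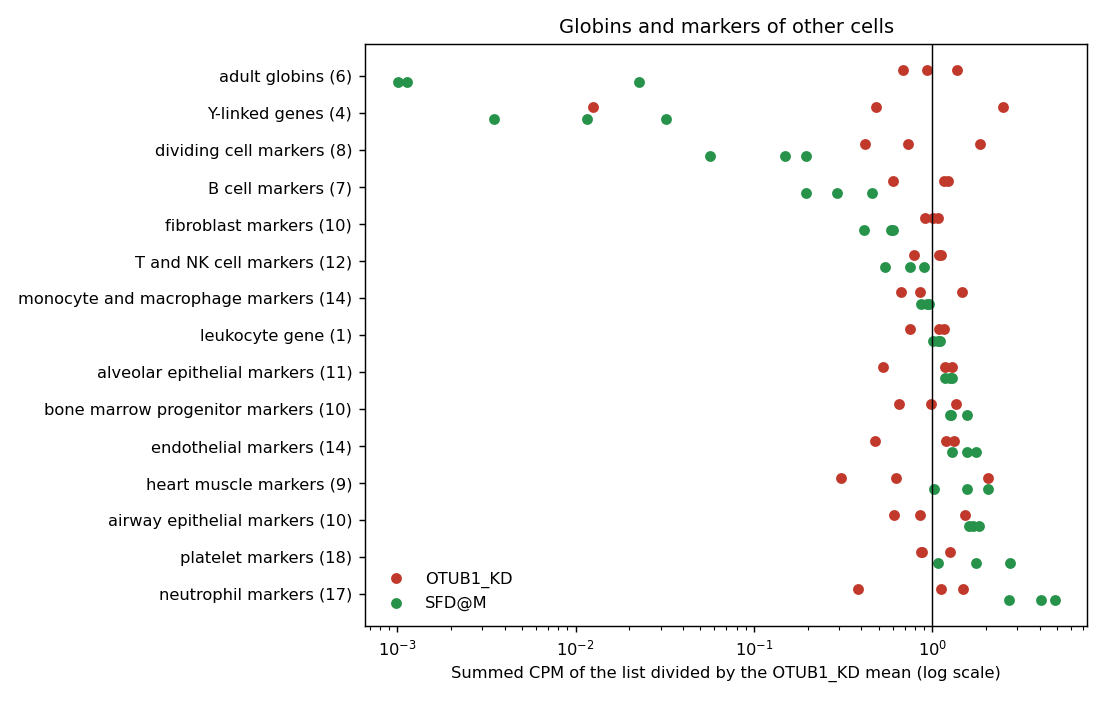
Summed CPM of the adult globins and of each marker list, with its number of genes in brackets, in the libraries of OTUB1_KD (red) and SFD@M (green), divided by the OTUB1_KD mean, on a log scale. SFD@M globin sums lie between 0.001003 and 0.0228 times the OTUB1_KD mean, B cell markers between 0.196 and 0.461 times, platelet markers between 1.08 and 2.73 times and neutrophil markers between 2.68 and 4.86 times.

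The wider erythroid programme was followed in 7 lists of 118 genes that hold no member, of which 114 were in the table. By edgeR's quasi-likelihood test with Benjamini-Hochberg adjustment over all genes, 47 rose and 19 fell of 98 tested in OTUB1_KD against NC, where 65.7% of all genes were called in either direction and 39.9% rose. In SFD@M against Blank 52 rose and 30 fell of 95, where 88.1% of all genes were called and 49.5% rose. Both shares are near the background, and the median log2 change of 0.46 in each stood beside 0.16 and 0.23 over all genes tested. In SFD@M against OTUB1_KD 0 of 100 were called by edgeR, where 0.0134% of all genes were. An unadjusted p under 0.05 was found for 27 of 100 and for 19.9% of all genes, and DESeq2 called 14 of 100 and 9.2% of all genes. In that comparison 20 of 100 genes had all SFD@M libraries under all OTUB1_KD libraries and 13 had them above, against 16.7% and 12.1% of all genes.

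Of the other globins, the embryonic genes were at or near 0. Hba-x had 0 counts in all 12 libraries, and Hbb-y at most 3 counts in a library. Hbq1a, a theta-globin gene, had 3, 5 and 16 counts in OTUB1_KD and 0 in all 9 other libraries, and its near copy Hbq1b had 5, 7 and 2 counts in OTUB1_KD and at most 2 elsewhere. The globins that are no part of the red cell behaved differently. Cygb, cytoglobin of fibroblast-like cells, was at 56.2 ± 15.8 CPM in OTUB1_KD and 59.4 ± 4.82 CPM in SFD@M against 0.239 ± 0.116 in NC and 0.194 ± 0.121 in Blank. Mb, myoglobin of muscle, was at 27.5 ± 26.0 and 20.5 ± 9.16 CPM, and Ngb, neuroglobin, at 2.16 ± 1.36 and 2.65 ± 0.815 CPM. Each of the 3 rose in OTUB1_KD (adjusted p = 2.3e-05, 0.0020 and 0.015 by edgeR) and in SFD@M (3.2e-08, 8.8e-06 and 9.7e-05) against its control. The Ngb call in OTUB1_KD was lost without NC replicate 1 or 3 or without OTUB1_KD replicate 2 or 3, with an adjusted p of up to 0.058.

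Genes of heme synthesis were divided. In OTUB1_KD 4 of 15 rose and 4 fell against NC, and in SFD@M 3 rose and 7 fell against Blank, with medians of -0.08 and -0.22. Alas1, the form of the first enzyme used outside red cells, rose in OTUB1_KD from 78.7 ± 1.23 to 194 ± 65.2 CPM (log2 1.24 ± 0.27, adjusted p = 0.0065) and in SFD@M from 45.7 ± 3.12 to 294 ± 29.1 CPM (2.65 ± 0.10, 1.1e-07). Between SFD@M and OTUB1_KD Alas1 was not called (log2 0.61 ± 0.28, adjusted p = 0.27), although all its SFD@M libraries lay above all its OTUB1_KD libraries, as for 12.1% of all genes. Slc25a37, mitoferrin 1, which brings iron into mitochondria, fell in OTUB1_KD (log2 -1.58 ± 0.26, adjusted p = 0.0018) and in SFD@M (-1.12 ± 0.05, 5.3e-07). Slc25a39, a mitochondrial carrier, also fell in both (-0.86 ± 0.21, 0.011, and -1.51 ± 0.06, 2.6e-07). Fech, which inserts the iron into heme, was at 62.5 ± 8.79 CPM in OTUB1_KD, 63.1 ± 2.03 in NC, 59.8 ± 3.53 in Blank and 52.8 ± 7.26 in SFD@M and passed the test in neither experiment.

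Among erythroid transcription factors, 10 of 14 rose and 1 fell in OTUB1_KD, and 12 of 15 rose and 2 fell in SFD@M, with medians of 5.86 and 6.27 (5.51 when genes at 0 counts in Blank are set to their bound). Klf1 and Gata1 were low. Klf1, an activator of adult beta-globin, had 15 counts in OTUB1_KD, 7 in NC, 6 in Blank and 7 in SFD@M and was not tested. Gata1 was at 0.229, 1.39 and 0.943 CPM in OTUB1_KD and 3.82, 1.59 and 0.883 CPM in SFD@M, so it overlapped between them, and it rose in SFD@M against Blank (log2 6.27 ± 1.05, adjusted p = 0.00067). Several other factors of the list were higher in these groups: Tal1 at 19.4 ± 9.11 and 27.3 ± 1.51 CPM, Gata2 at 63.8 ± 28.2 and 151 ± 11.4 CPM, Cbfa2t3 at 48.7 ± 19.6 and 72.7 ± 8.17 CPM and Ldb1, also at 122 ± 1.74 CPM in NC, at 142 ± 26.9 and 136 ± 25.7 CPM. Kit, a receptor of blood progenitors and mast cells, was at 0 in NC and Blank, 122 ± 56.9 CPM in OTUB1_KD and 222 ± 57.4 CPM in SFD@M.

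Of the membrane and skeleton genes 13 of 23 rose and 2 fell in OTUB1_KD, and 14 of 21 rose and 6 fell in SFD@M. Epb42, protein 4.2 that binds band 3, was at 0.743, 0.867 and 0.666 CPM in OTUB1_KD and at 0.176, 0.0588 and 0.118 CPM in SFD@M. It rose in OTUB1_KD against NC (log2 3.95 ± 0.80, adjusted p = 0.0047), and its SFD@M libraries lay under its OTUB1_KD libraries without passing the test (adjusted p = 0.086). Several other genes of this list, only some of them widely expressed outside red cells, did not follow. The water channel Aqp1, also of endothelium, was at 689 ± 359.9 CPM in OTUB1_KD and 995 ± 214 in SFD@M, Epb41, protein 4.1, at 129 ± 35.3 and 241 ± 32.6 CPM, Add1, an adducin, at 269.97 ± 31.3 and 270.05 ± 22.8 CPM, Sptb, beta-spectrin, at 4.44 ± 1.47 and 3.63 ± 0.713 CPM, and Ank1, ankyrin 1, at 5.29 ± 1.70 and 3.25 ± 1.26 CPM. Kel, the Kell antigen, picked after its values were seen, had 8, 7 and 4 counts in OTUB1_KD and 0 in all 9 other libraries. Likewise picked afterwards, the potassium channel gene Kcnn4 was at 46.0, 7.75 and 46.4 CPM in OTUB1_KD and 4.40, 4.59 and 4.004 CPM in SFD@M, and the adducin gene Add2 at 27.0, 0.173 and 10.9 CPM against 0.587, 0.353 and 0.413 CPM. OTUB1_KD replicate 2, intermediate in its group for summed globin, was the lowest of its group for both genes. Both were also expressed in the controls, which held almost no globin messages. Mean control levels of Kcnn4 were 25.7 CPM (NC) and 25.6 CPM (Blank), and those of Add2 were 16.4 and 12.3 CPM. Neither gene passed the test in OTUB1_KD against NC (adjusted p by edgeR 0.65 and 0.74). Both fell in SFD@M against Blank (log2 -2.60, adjusted p by edgeR 1.5e-07, and -4.79, 2.1e-07).

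Enzymes and antioxidants of the red cell were divided as well, with 4 of 13 up and 4 down in OTUB1_KD and 5 of 13 up and 7 down in SFD@M. Car1, the abundant carbonic anhydrase of mouse red cells, had at most 4 counts in any library. Car2, a wider carbonic anhydrase, was at 67.9 ± 37.9 CPM in OTUB1_KD and 71.3 ± 9.89 CPM in SFD@M and rose in both against the control (log2 5.48 ± 0.57, adjusted p = 0.00025, and 6.55 ± 0.19, 4.7e-08). The list's most abundant genes were Eno1, a glycolytic enzyme, at 753 ± 542 and 187 ± 17.8 CPM, Gpx1, glutathione peroxidase 1, at 368 ± 79.6 and 294 ± 38.7 CPM, and Cyb5r3, which reduces oxidized hemoglobin, at 295 ± 87.1 and 283 ± 18.2 CPM. Eno1 was far higher still in NC, at 2138 ± 59.7 CPM and 2182 ± 41.8 CPM in Blank, so unlike the globins it was highest in the control groups.

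In the list of late maturation 8 of 20 rose and 8 fell in OTUB1_KD, and 10 of 19 rose and 7 fell in SFD@M. Trim58, which helps the nucleus leave the cell, had at most 2 counts in a library, and Epor, the erythropoietin receptor, was at 2.93 ± 1.20 CPM in OTUB1_KD and 2.55 ± 0.550 in SFD@M. Tfrc, the transferrin receptor of growing cells, fell in both experiments (log2 -1.80 ± 0.15, adjusted p = 8.9e-05, and -2.25 ± 0.13, 1.5e-06), from 285 ± 2.635 to 85.7 ± 6.86 CPM and from 520.3 ± 6.22 to 112 ± 20.9 CPM. Bnip3l, which clears mitochondria, was at 185 ± 36.8 and 231 ± 25.2 CPM in OTUB1_KD and SFD@M, Riok3 at 121 ± 13.6 and 156 ± 6.06 CPM and Trak2 at 86.1 ± 17.1 and 132 ± 9.71 CPM.

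Other late red cell genes were singled out after their values were seen, because their OTUB1_KD libraries lay above their SFD@M libraries. Bnip3l, Riok3 and Trak2 of the same list were separated the other way, with SFD@M above OTUB1_KD in all libraries by CPM. Summed over the list, SFD@M was at 0.986 times the OTUB1_KD mean. Trim10 was at 1.39 ± 0.374 and 0.0784 ± 0.0679 CPM (log2 difference -4.01 ± 0.68, adjusted p = 0.082), and Ube2l6, a ubiquitin-conjugating enzyme that is also induced by interferon, at 91.7 ± 5.44 and 40.2 ± 5.404 CPM (-1.18 ± 0.17, 0.069). Hemgn, hemogen, had 12, 10 and 7 counts in OTUB1_KD and 0, 1 and 0 in SFD@M, and Tspo2 about 7 to 8 counts in each OTUB1_KD library and 0 in SFD@M. These counts are small, and neither gene was tested between the groups.

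Heme breakdown and globin scavenging genes were tested because they handle what dead red cells release: 5 of 10 rose and 0 fell in OTUB1_KD, and 5 of 9 rose and 1 fell in SFD@M. Hmox1, heme oxygenase 1, was at 451, 45.6 and 235 CPM in OTUB1_KD, so its libraries did not follow the order of the globins, and at 69.7, 47.3 and 54.4 CPM in SFD@M. It rose against NC (log2 2.85 ± 0.73, adjusted p = 0.012) and against Blank (1.04 ± 0.13, 0.00015). Hp, haptoglobin, which binds free hemoglobin, was at 708 ± 228 CPM in OTUB1_KD and 1002 ± 174 CPM in SFD@M against under 1 CPM in the controls. The ferritin genes Fth1 and Ftl1 were abundant in all groups, at 2650.5 ± 688 and 1968 ± 171 CPM for Fth1 and 1679 ± 292 and 1342 ± 124 CPM for Ftl1 in OTUB1_KD and SFD@M.

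**Figure D5:**
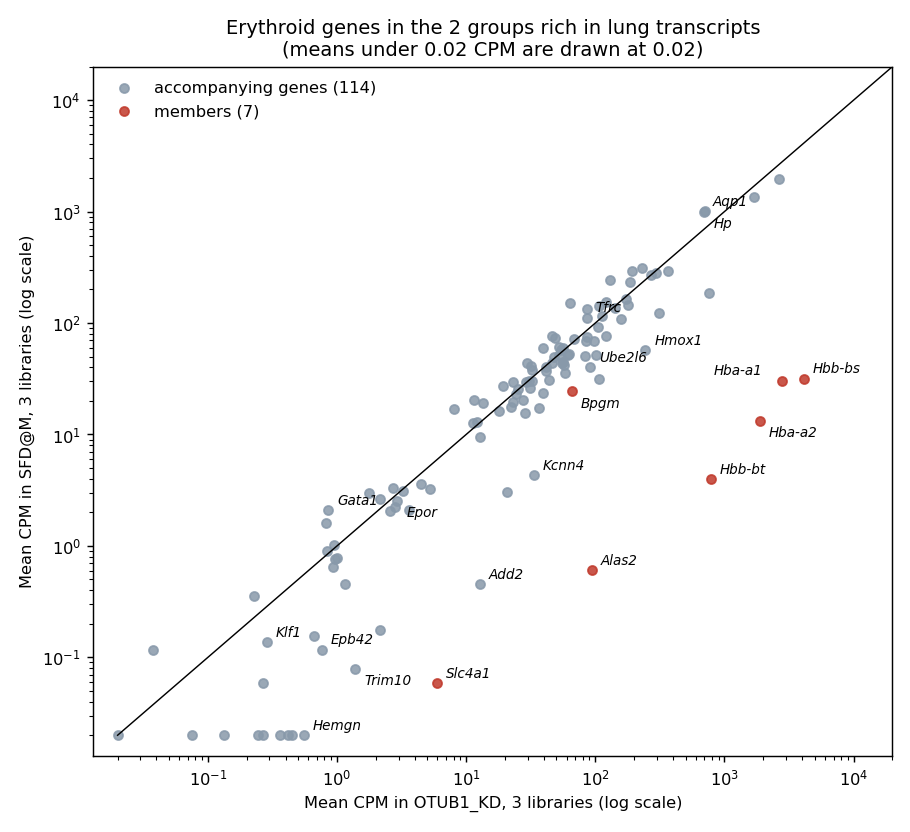
Mean CPM of 3 libraries in OTUB1_KD (horizontal) and in SFD@M (vertical), both on log scales, for the 7 erythroid genes (red) and the 114 accompanying genes (grey); the line marks equal levels. The globins, Alas2 and Slc4a1 lie far under the line, Trim10 and Epb42 lie under it to a smaller extent, and Gata1, Aqp1 and Hp lie at or above it.

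Genes whose levels ran most like those of the members were looked up over the 6 libraries of OTUB1_KD and SFD@M, among 12546 genes with a mean of at least 5 CPM. With Hbb-bs the highest Pearson correlations of log2(CPM + 1) were 0.999 for Hba-a2, 0.992 for Gm2a, 0.991 for Hbb-bt, 0.991 for Hba-a1, 0.990 for Rhoh, 0.990 for Cdc42ep5, 0.986 for Kcnh2, 0.986 for Prr3, 0.985 for Pax5 and 0.980 for Arhgap9. Those genes moved much less than the globins: Gm2a was at 175 CPM in OTUB1_KD and 119 CPM in SFD@M, and Pax5, a B cell factor, at 14.6 and 4.21 CPM. With Alas2 they were 0.994 for Tbc1d10b, 0.991 for Cd48, 0.988 for Plbd1, 0.988 for Zfp90 and 0.987 for Hbb-bt. Altogether 192 genes (1.53%) reached 0.9 with Hbb-bs and 324 genes with Alas2. These values are a description of 6 libraries that form 2 groups, in which any gene with separated groups correlates, and they share library totals.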

How the data were processed

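Poly(A)-enriched messenger RNA of 12 libraries was sequenced on DNA nanoballs, per the labels' protocols. For each of 70659 transcripts and each library the authors deposited estimated counts, TPM, FPKM and normalized counts (a signal scaled between libraries), 4 values in all. Bowtie2, RSEM 1.3.1, DESeq2 1.4.5 and build GRCm39 are listed in the submitters' processing notes; of their settings, and of any use of strand, nothing is said in the labels. Transcript counts were summed by Entrez gene and 19155 of 19212 genes were named from the gene table, while 57 were not. The deposited TPM were summed likewise and the deposited FPKM were not used. The normalized counts served as an alternative for the globin ratio and, since dividing by size factors leaves whole reads (100% whole within 0.001), for recovered reads. CPM is the count scaled to a library total of 1000000.

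Rounded counts were tested with edgeR 4.0.16 (TMM scaling, quasi-likelihood test, filterByExpr) in R 4.3.3, within the pairs OTUB1_KD and NC, SFD@M and Blank, and SFD@M and OTUB1_KD, and over all 12 libraries for the difference between the changes; p-values were adjusted over all genes tested, with a threshold of 0.05. Alternatives used DESeq2 1.42.0 and limma 3.58.1 on log2(TPM + 1) and log2(TPM + 0.1). Python 3.11.15, scipy 1.17.1, pandas 2.3.3 and matplotlib 3.10.9 were used for counts and plots. The members and all lists were chosen with earlier results of these data known, so members carry no p-value of their own. The text names every gene of the other-globin list, the 3 genes of each other list with the highest mean CPM over OTUB1_KD and SFD@M, further genes and markers listed by name, and the genes most correlated with Hbb-bs (10) and Alas2 (5); any others are said to be chosen after their values were seen. Ratios compare summed counts over summed library totals with exact 95% intervals, and a floor of 3 counts per group is used where a group is at 0.

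On simulated counts the test recovered 15% of 2-fold and 79% of 4-fold changes for OTUB1_KD against NC (14621 genes, 4 of 98 calls false), 80% and 96% for SFD@M against Blank (14600 genes, 12 of 188), 13% and 82% for SFD@M against OTUB1_KD (14803 genes, 7 of 102) and 17% and 77% for the difference (15034 genes, 6 of 100). Hbb-bh0, Hbb-bh1, Hbb-bh2 and Ahsp were not analysed here. Some genes that the naming rule selects are not reported here.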

Additional observations from a re-analysis of the deposited data

Results flagged for a closer look

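For 19 of 102 accompanying erythroid genes (18.6%) the change in SFD@M against Blank differed from the change in OTUB1_KD against NC by a test of the difference itself (edgeR, adjusted over all genes, of which 23.1% passed). The 7 of these that the naming rule selects are given here. Alas1 rose by 1.24 and by 2.65 on the log2 scale, a difference of 1.45 (adjusted p = 0.0076) that passed with any 1 library left out. Bnip3l, which clears mitochondria, changed by -0.55 and 0.26, a difference of 0.85 (0.012) that also passed with any 1 library left out. Its changes were less firm: the first was not called without any 1 NC library (adjusted p by edgeR up to 0.10), and the second was not called without Blank replicate 3 (0.058) and turned to -0.0094 on log2(TPM + 1).

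The other differences were less stable. Riok3 changed by 1.13 and 1.62, a difference of 0.52 (adjusted p by edgeR 0.020, lost without NC replicate 3, Blank replicate 1 or Blank replicate 2). Ank1, ankyrin 1, changed by -0.21 and -1.92, a difference of -1.68 (0.0197, and 0.054 without Blank replicate 3). Gata2 changed by 4.22 and 5.47, a difference of 1.28 (0.042), and Trak2 by -0.82 and -0.28, a difference of 0.57 (0.040), each lost in 9 of 12 fits that left out 1 library. Eno1 changed by -1.57 and -3.58, a difference of -1.99 (0.048), lost in 11 of 12 such fits.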

How the results depend on the processing

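Alternative scalings, filters, tools and fits left the direction of the SFD@M to OTUB1_KD difference of all 7 members as reported, but not its size: without SFD@M replicate 1 Hbb-bs moved from -7.03 to -12.62, with the replicate block to -10.68, and Slc4a1 moved to -1.47 on log2(TPM + 1). Of the 7 members, 0 were called there (0.0134% of all genes), but 3 with no filter on low counts (0.0817%), 7 with DESeq2 (9.2%), 5 on log2(TPM + 1) (0.115%), 4 on log2(TPM + 0.1) (0.108%) and 7 with all 12 libraries in 1 fit (18.7%). With 1 library left out the count was 0 to 5: 1 without OTUB1_KD replicate 1 (0.0465%), 5 without OTUB1_KD replicate 2 (12.4%) and 5 without SFD@M replicate 1 (0.0395%). Nothing is read from these counts, since the members were chosen on these levels. Of the accompanying genes 0 were called there, but 1 with no filter, 14 with DESeq2, 1 on either TPM scale, 26 in the fit of all 12, and 0 to 17 with 1 library left out (17 without OTUB1_KD replicate 2). The count whose changes differed between the experiments, 19, ran from 10 to 32: 32 without OTUB1_KD replicate 2, 11, 11 and 10 without NC replicates 1, 2 and 3, 10 without any 1 Blank replicate and 12 without SFD@M replicate 1, where 13.5% to 35.8% of all genes passed. Against the controls the count of accompanying genes called stayed within 58 to 73 (66 reported) and 80 to 86 (82 reported) with 1 library left out. Of all genes, 52.6% to 74.3% and 84.6% to 89.0% were called in those fits. The log2 alpha to beta difference of 2.41 ran from 1.72 to 3.51.

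Against Blank, Add1 turned from 0.24 to -0.023 on log2(TPM + 1) and -0.023 on log2(TPM + 0.1), and Bnip3l from 0.26 to -0.0094 and -0.0095. On log2(TPM + 1) the median of all genes moved from 0.16 to -0.09 in OTUB1_KD against NC and from 0.23 to -0.13 in SFD@M against Blank, and the split of higher to lower calls from 5903 and 3818 to 4819 and 4888, and from 7331 and 5731 to 5839 and 6661. The cause was not tested.

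Replicate numbers shared between groups did not pair the libraries: same-numbered deviations correlated at -0.26 to 0.054. With the replicate block 63, 84, 0 and 17 accompanying genes were called, beside 63.3%, 87.8%, 0.0469% and 19.7% of all genes. There 0 members were called between SFD@M and OTUB1_KD, and the alpha to beta difference was 2.41. Recovered whole reads, an alternative chosen after seeing the data, gave the reported counts (66, 82, 0 and 19), beside 65.7%, 88.1%, 0.0134% and 23.1% of all genes. A floor of 3 counts is 0.166 to 0.187 CPM in these libraries, and Slc4a1 in SFD@M and Alas2 and Hbb-bt in NC and Blank lay at or under it in every library.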
